A study of Mus musculus with 18 samples.

Results

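Crypt cells with high and with low signal from a fluorescent reporter for Flattop were compared with each other on 1-colour microarrays. The comparison sets the 2 reporter-high arrays against the 2 reporter-low arrays, which are 4 of the 18 samples of the series. The cells came from small intestinal crypts of 4-month-old C57Bl6/J mice of genotype FltpZV/+, in which a fluorescent reporter marks activity of the Flattop gene (symbol Cfap126), and were separated by fluorescence-activated sorting on the brightness of the green reporter. Each array holds RNA of a pool of 2 animals, and whether equal replicate numbers mark shared animals is not stated in the labels. The 2 arrays of the reporter-negative gate, from mice of the same age, strain and genotype, entered the fit to share its estimate of the spread. The other 12 samples, of a lineage-tracing line, are not analysed here. Values are log2 RMA values, so a difference of 1 is a doubling. A difference is called when limma's two-sided test gives a Benjamini-Hochberg adjusted p under 0.05 over all 19938 genes.

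The crypt holds the stem cells of the intestine and the progeny that they renew without pause. Notch signalling divides this progeny: cells with little Notch activity express Atoh1 and become secretory, while cells with strong Notch activity express Hes1 and become absorptive. The secretory branch gives Paneth cells, which release antimicrobial proteins at the crypt base, goblet cells, which release mucus, and enteroendocrine cells, which store peptide hormones in granules and release them when nutrients are sensed. Intraepithelial lymphocytes, mostly cytotoxic T cells, lie between the epithelial cells and can be carried into a sort. Flattop is an effector of the planar cell polarity pathway, which orients cells within an epithelium.

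The 4 genes that mark the comparison separated the gates. Atoh1, the transcription factor of secretory fate, read 7.01 and 7.997 on the reporter-low arrays and 10.38 and 10.80 on the reporter-high arrays. Sox9, a transcription factor of Paneth and crypt base cells, read 7.44 and 7.46 against 8.94 and 8.83. In the opposite direction, Nts, the neurotensin gene, read 11.47 and 10.96 in reporter-low cells and 3.94 and 4.32 in reporter-high cells, and Cd3g, a subunit of the T cell receptor complex, read 10.92 and 11.08 against 6.76 and 6.61. The arrays of the gates did not overlap for any of the 4, nor did they for 55.8% of all genes tested. As the 4 genes were chosen to mark this comparison, their differences are not a separate test of it. Some epithelial genes, chosen after their values were seen, were bright in both gates. On the 4 arrays Krt18, a keratin gene, read 10.31 to 10.81, Epcam, an epithelial adhesion gene, 9.40 to 9.68 and Vil1, the villin gene, 9.64 to 9.98. Their limma adjusted p ran from 0.628 to 0.952.

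The arrays had probe set medians between 4.54 and 4.74. The Pearson correlation across genes was 0.946 within the reporter-high pair, 0.975 within the reporter-low pair and 0.902 to 0.925 between the gates. A background level of 4.23 was set by receptor genes of smell, which the gut epithelium was taken not to express. The share of genes above it was 69.4% for replicate 2 of the high gate and 61.3% to 65.4% for the others. The Flattop transcript was not called: Cfap126 read 5.16 and 6.13 in reporter-low and 5.15 and 4.996 in reporter-high cells, a difference of -0.57 ± 0.36 (SE; limma adjusted p = 0.366; 95% interval -1.41 to 0.28). None of the 32 measured planar cell polarity genes, Cfap126 among them, was called by limma, against 4.91% of all genes. A list of 32 genes would hold few calls at that share. Differences in the list ran from -0.57, that of Cfap126, to 0.59, and 1 gene had an unadjusted limma p under 0.05. The Y-linked gene Eif2s3y read 5.95 to 7.04 on replicate 1 and 3.46 to 3.77 on replicate 2 of the 3 gates, and Xist was lower on replicate 1 than on replicate 2 in each gate, so these genes followed the replicate number and not the gate.

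Of 19938 genes, 978 differed between the gates, which is 4.91% of those tested. Of these, 202 (1.01%) were higher and 776 (3.89%) lower in reporter-high cells. The smallest difference called was 0.81 on the log2 scale. Differences of 4-fold or more were called for 276 lower and 19 higher genes. The arrays of the gates did not overlap for any of the 978 called genes, nor for 55.8% of all genes (35.3% with the high arrays above and 20.4% with them below). The difference was above 0 for 12301 of the 19938 genes, with a median of 0.13, and -0.02 over the 12880 genes above background. With quantile-normalized values 326 genes were called higher and 616 lower. The count rested on single arrays: it was 1739 without high replicate 1, 390 without low replicate 1, 381 without low replicate 2 and 499 without either negative array. In all these settings more genes were lower than higher.

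**Figure D1:**
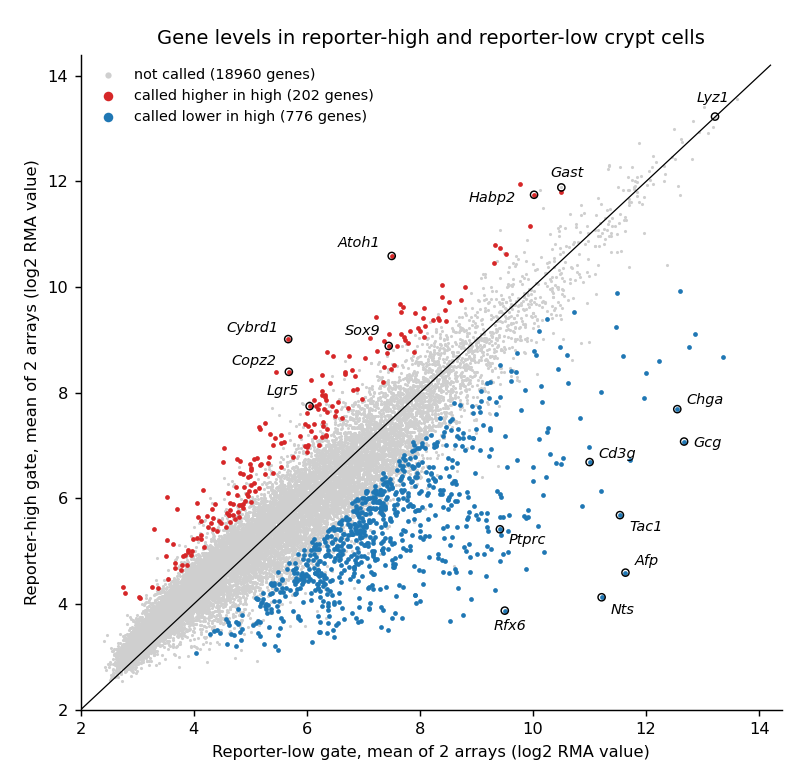
Mean log2 RMA value of each of 19938 genes in the reporter-low gate (horizontal axis) and the reporter-high gate (vertical axis), 2 arrays each; red and blue points are the 202 and 776 genes called higher and lower in reporter-high cells, and the line marks equal values. Hormone, granin and lymphocyte genes lie far below the line, Atoh1 and Cybrd1 lie above it, and Lyz1 lies on it.

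The gut hormone genes that differed were nearly all lower in reporter-high cells. Of 22 measured members of the hormone list, 11 were lower, 2 were higher and 9 were not called, so that 59.1% were called against 4.91% of all genes. The median difference of the list was -2.09. The list includes Nts, which was chosen to mark this comparison. The members below are ordered by the endocrine cell subtype in which each hormone is best known.

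Gcg, which encodes the glucagon-like peptides of L cells, read 12.65 and 12.70 in reporter-low and 6.59 and 7.56 in reporter-high cells, a 48.3-fold difference (-5.60 ± 0.32; limma adjusted p = 0.000633). Pyy, the peptide YY gene of the same cells, was 31.9-fold lower (-4.99 ± 0.42). Nts, of N cells, was 136-fold lower (-7.08 ± 0.28; limma adjusted p = 0.000308), the largest difference of any gene, with 1 of the 2 reporter-high arrays above background. For all 3 genes both reporter-low arrays lay far above both reporter-high arrays. Gip, the incretin gene of K cells, read 13.47 and 13.25 against 8.55 and 8.80, a 25.7-fold difference, and remained well above background in reporter-high cells. Sct (secretin) was 13.5-fold lower, Sst (somatostatin of D cells) 12.2-fold lower and Cck (cholecystokinin of I cells) 16.7-fold lower (-4.06 ± 0.74; limma adjusted p = 0.0303). The call of Cck was lost without low replicate 1, low replicate 2 or high replicate 2 (limma adjusted p from 0.108 to 0.141). Ucn3, a urocortin gene, was 10.4-fold lower, and Iapp, the amylin gene, at least 4.18-fold lower. The call of Iapp was lost without any single array but low replicate 2 (limma adjusted p from 0.0569 to 0.114).

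Tac1 and Tph1, also of the hormone list, are best known in enterochromaffin cells, which make serotonin and tachykinins. Tac1, the precursor of substance P, read 11.43 and 11.64 in reporter-low and 4.995 and 6.37 in reporter-high cells (-5.85 ± 0.63; limma adjusted p = 0.0044). Tph1, the rate-limiting enzyme of serotonin synthesis in the gut, read 10.09 and 10.31 against 5.73 and 4.23, a 37.3-fold difference. Slc18a1 and Slc18a2, transporters that load monoamines into vesicles, were chosen after their values were seen, and were 5.59-fold and 9.05-fold lower. The call of each transporter was lost without high replicate 2 or low replicate 2 (limma adjusted p from 0.0575 to 0.0961), and that of Slc18a1 also without either negative array (0.0749).

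Not all hormones followed this direction. Ghrl, the ghrelin gene of X cells, read 12.73 and 12.002 in reporter-low and 11.48 and 9.38 in reporter-high cells; the gates did not overlap, but the difference of -1.94 ± 0.63 was not called (limma adjusted p = 0.144; 0.0134 without high replicate 1). Gast, the gastrin gene, read 11.89 and 9.11 against 12.76 and 11.01, which overlap (1.39 ± 0.91; limma adjusted p = 0.385). Both genes varied widely between replicates of a gate. Nucb2, the precursor of nesfatin, was 3.16-fold higher (8.18 and 8.60 against 10.09 and 10.004; limma adjusted p = 0.00941, and 0.0622 without low replicate 1). Ppy, the pancreatic polypeptide gene, was 2.04-fold higher at a low level (5.69 and 5.81 against 6.92 and 6.64; limma adjusted p = 0.038), a call lost without high replicate 1 or any low or negative array (limma adjusted p from 0.0577 to 0.191). The other 7 uncalled members, Insl5, Penk, Gal, Nmb, Adm, Npy and Pdyn, differed by -0.11 to 0.73; of these Pdyn was called higher without high replicate 1 (limma adjusted p = 0.0236).

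**Figure D2:**
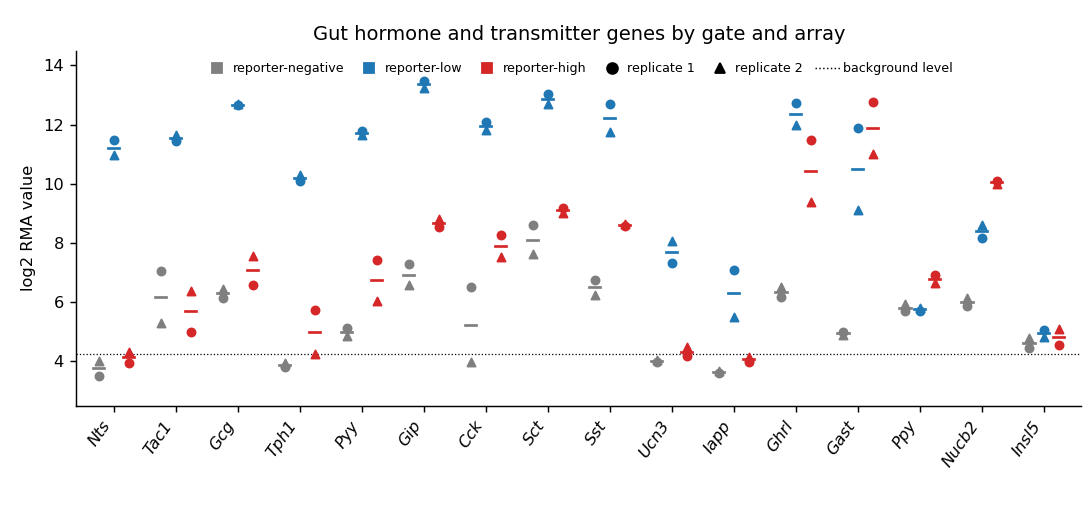
Log2 RMA values of 16 hormone and transmitter genes on each of the 6 arrays, coloured by gate; circles and triangles are replicates 1 and 2, short lines are gate means, and the dotted line is the background level of 4.23. From Nts to Iapp the reporter-low arrays lie above both other gates, Gast is high in both reporter-positive gates, and Nucb2 is highest in the reporter-high gate.

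Genes of hormone storage and maturation were lower as well. Of 18 measured genes of granins and prohormone processing, 15 were lower in reporter-high cells and none higher (median difference -2.99). This was 83.3% called, against 4.91% of all genes. Chga, a granin of dense-core granules, read 12.26 and 12.85 in reporter-low and 8.20 and 7.17 in reporter-high cells (29.1-fold; -4.86 ± 0.37; limma adjusted p = 0.00126). Chgb, another granin, read 12.69 and 12.82 against 9.57 and 8.15 (14.8-fold). Both granins thus remained far above background in reporter-high cells. Pcsk1, the convertase that cuts prohormones, read 9.70 and 10.13 against 5.91 and 5.39 (19.2-fold), and Cpe, the carboxypeptidase that trims the cut peptides, read 11.34 and 11.06 against 7.42 and 4.87 (33.2-fold; limma adjusted p = 0.0122). Scg2 and Scg3, secretogranin genes, were 23.7-fold and 16.7-fold lower, and Pam, which amidates peptide ends, was 10.8-fold lower. The 3 members not called were Pcsk1n, Qpct and Cpd, with differences from -1.76 to 0.72. The count was 12 to 14 without any single array; Cpe lost its call without low replicate 1 or 2 (limma adjusted p = 0.0724 and 0.0616).

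Some promoters of these genes share the palindrome TGACGTCA, the cAMP response element, bound by factors of the CREB family. The RefSeq promoter table (GRCm38.p6) held 44 of the 56 genes of the endocrine lists that were lower in reporter-high cells, and the 250 bases before the start held TGACGTCA in 6 of them (13.6%: Chgb, Pax6, Pcsk1, Peg3, Scg2 and Sst), against 2.33% of the 15614 tested genes with an entry. Of all genes lower in reporter-high cells it was held by 21 of 621 (3.38%), and of the higher genes by 1 of 147 (0.68%). The promoters of Chgb (chr2:132781392-132781641, plus strand), Scg2 (chr1:79440027-79440276, minus strand), Sst (chr16:23890845-23891094, minus strand) and Pcsk1 (chr13:75089607-75089856, plus strand) are printed 5′ to 3′ as examples of granin, hormone and processing genes that carry the palindrome, in capitals. Its first base lies 72, 68, 48 and 78 bases before the start, in the same order. In Pax6, which has a second listed promoter without it, and Peg3 it lies 76 and 178 bases before the start.
Chgb: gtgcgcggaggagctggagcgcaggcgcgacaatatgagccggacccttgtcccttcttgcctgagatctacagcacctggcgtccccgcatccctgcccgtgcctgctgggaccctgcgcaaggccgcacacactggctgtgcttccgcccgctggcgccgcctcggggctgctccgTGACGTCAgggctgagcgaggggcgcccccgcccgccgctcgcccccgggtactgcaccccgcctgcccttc
Scg2: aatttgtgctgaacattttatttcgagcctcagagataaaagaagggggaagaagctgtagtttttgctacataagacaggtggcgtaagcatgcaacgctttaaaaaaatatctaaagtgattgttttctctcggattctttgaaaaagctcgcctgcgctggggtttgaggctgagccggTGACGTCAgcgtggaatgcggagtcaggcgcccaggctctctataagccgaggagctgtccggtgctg
Sst: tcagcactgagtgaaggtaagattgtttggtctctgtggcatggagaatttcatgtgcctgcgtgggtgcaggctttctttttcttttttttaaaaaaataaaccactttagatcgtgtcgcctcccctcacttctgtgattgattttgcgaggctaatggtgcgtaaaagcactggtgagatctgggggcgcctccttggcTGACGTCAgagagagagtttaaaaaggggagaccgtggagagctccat
Pcsk1: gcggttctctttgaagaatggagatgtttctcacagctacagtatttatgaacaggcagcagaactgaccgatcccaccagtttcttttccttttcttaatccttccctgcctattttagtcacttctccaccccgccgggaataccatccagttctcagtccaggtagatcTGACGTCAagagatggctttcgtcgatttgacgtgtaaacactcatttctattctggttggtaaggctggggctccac
This palindrome was 1 of 13 motifs searched on both strands, with the results of the comparison known, and the match is a description of these letters only. TGACGTNA, which contains it, was in 7 of the 44 promoters (15.9%, against 3.64% of all). The E-boxes CAGATG and CAGCTG were in 10 (22.7%, against 13.8%) and 13 (29.5%, against 14.49%). TTTGAT was in 4 (9.09%, against 10.1%), and CTTTGAT and TTTGATC, which contain it, were in 1 and 0 (3.32% and 2.22% of all). CACGTG was in 3 (8.11% of all) and GCCACGTG, which contains it, in 2 (1.40%). TTCCGGAA, CAGGAAGT, TGACGTGG and the endoplasmic reticulum stress response element were in 0 (0.801%, 3.10%, 0.781% and 0.128% of all).

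Among genes of regulated exocytosis, 12 of 25 measured members were lower in reporter-high cells, 1 was higher and 12 were not called (52.0% called, against 4.91% of all genes; median difference -1.09). Snap25, a SNARE protein gene of vesicle fusion, read 7.47 and 7.80 in reporter-low and 4.09 and 4.63 in reporter-high cells (9.65-fold). Cadps, which primes dense-core vesicles, was at least 10.1-fold lower, and Rab3c, a small GTPase of secretory vesicles, at least 8.47-fold lower, as neither was above background on any reporter-high array. Cplx2 and Cplx1, complexins that clamp the fusion machinery, were 6.41-fold and 2.73-fold lower. The gene that went the other way was Unc13a, a vesicle priming factor (6.91 and 6.60 against 8.396 and 9.01; limma adjusted p = 0.00953). Its probe sets did not agree, since their mean gave a limma adjusted p of 0.406. Without low replicate 2 the called members numbered 7, and Cplx1 and Unc13a lost their calls (limma adjusted p = 0.0615 and 0.0656).

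Of 25 measured transcription factors of the endocrine lineage, 11 were lower and 0 higher in reporter-high cells (median difference -1.34). This was 44.0% called, against 4.91% of all genes. Rfx6, needed for several hormone cell types, read 9.70 and 9.30 in reporter-low and 4.04 and 3.72 in reporter-high cells, at least 38.6-fold lower (limma adjusted p = 0.000308). Neurod1, which acts after endocrine commitment, read 8.92 and 8.90 against 4.05 and 4.14, at least 25.6-fold lower. Both were thus not above background in reporter-high cells. Peg3 (24.05-fold), an imprinted zinc finger gene, Isl1 (16.2-fold), Etv1 (11.8-fold) and Pax6 (10.6-fold) were also lower. Neurog3, the transient inducer of endocrine fate, was not called (6.54 and 5.23 against 5.76 and 5.33; -0.34 ± 0.41; limma adjusted p = 0.627). The called members numbered 8 to 10 without any single array.

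Receptors and channels through which endocrine cells respond were lower in smaller numbers. Of 25 sensing genes 7 were lower and 0 higher (28.0% called, against 4.91% of all genes, with a median difference of -0.61). Trpa1, an irritant-gated channel, read 8.33 and 9.21 in reporter-low and 3.79 and 3.78 in reporter-high cells, at least 23.2-fold lower. Glp1r, the receptor of a Gcg product, read 8.13 and 7.87 against 4.34 and 3.79 (15.3-fold), and Abcc8, the sulfonylurea receptor, was 8.48-fold lower. The fatty acid receptor gene Ffar1 and the lipid receptor gene Gpr119 were at least 3.07-fold and 3.92-fold lower, and Adgrd1, an adhesion receptor, 5.15-fold, a call lost without low replicate 1 or 2 (limma adjusted p = 0.0533 and 0.0615). Of 27 voltage-gated and Trp channel genes, 5 were lower and 2 higher (25.9% called, against 4.91% of all genes). Scn3a, a sodium channel gene, was at least 9.22-fold lower, and the calcium channel gene Cacna2d1 was at least 5.95-fold lower. Cacna1a, another calcium channel gene, was 6.95-fold lower. The channels that were higher are both potassium channels opened by calcium, Kcnma1 (2.46-fold) and Kcnn4 (1.92-fold). The calls of both were lost without low replicate 1 or 2 (limma adjusted p from 0.0579 to 0.167), and that of Kcnn4 also without high replicate 2 or either negative array (0.0656 and 0.0913).

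Some genes best known from liver were also lower in reporter-high cells. Afp, which encodes alpha-fetoprotein, read 11.34 and 11.93 in reporter-low and 4.20 and 4.99 in reporter-high cells (132-fold; -7.04 ± 0.32; limma adjusted p = 0.000378). Rbp4, the retinol carrier, read 10.19 and 9.82 against 6.73 and 5.94 (12.7-fold). Alb (albumin) and Trf (transferrin) were 4.37-fold and 3.98-fold lower from lower levels. Ambp, a precursor of plasma proteins, was 18.0-fold lower, but its reporter-high arrays read 6.86 and 3.897, and the call was lost without either low or either negative array (limma adjusted p from 0.0943 to 0.171). Of 20 measured liver-type plasma protein genes, 5 were lower and 0 higher (25% called, against 4.91% of all genes). The list median was 0.11, and -0.11 after quantile normalization. Without high replicate 1, 6 members were lower and 3 higher. Pgc, a pepsinogen gene, was lower (8.65 and 8.22 against 4.54 and 5.08). It was the only call among 22 pancreatic and gastric genes (4.5%, near the 4.91% of all genes). Of the 22 genes, 16 had a difference above 0 (median 0.34). Of 10 neuron and glia genes 2 were lower and 0 higher (20% called, against 4.91% of all genes), with a median of -0.09. They were Nefm, a neurofilament gene (at least 4.89-fold), and Ret, a receptor tyrosine kinase gene (3.11-fold). The call of Ret was lost without low replicate 1, where its difference was -1.55. Tpbg and Adgrg4, a surface glycoprotein gene and an adhesion receptor gene, were also among the 10 largest decreases (-5.22 ± 0.57 and -5.06 ± 0.17). Among the genes above with a measured fold, 1 of the 2 reporter-high arrays exceeded background for Tph1, Ucn3, Pam, Snap25, Slc18a2, Isl1, Abcc8, Glp1r, Afp, Ambp and Tpbg.

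Lymphocyte genes were lower in reporter-high cells. Of 20 pan-leukocyte genes 17 were lower and 0 higher (median difference -2.72). Of 25 T cell and intraepithelial lymphocyte genes 15 were lower and 0 higher (median -1.74). Of 20 cytotoxic and natural killer genes 11 were lower and 0 higher (median -1.67). These were 85%, 60% and 55% called, against 4.91% of all genes. The T cell list includes Cd3g, which was chosen to mark this comparison. In bulk samples, fewer cells of a type and less RNA per cell cannot be told apart. Ptprc, which encodes the leukocyte surface antigen CD45, read 9.46 and 9.37 in reporter-low and 5.11 and 5.72 in reporter-high cells (15.98-fold; -3.998 ± 0.24; limma adjusted p = 0.000633). Itgae, the integrin that holds lymphocytes within the epithelium, read 9.78 and 9.96 against 5.76 and 5.51 (18.8-fold), and Cd8a, the co-receptor of cytotoxic T cells, 10.61 and 10.40 against 6.54 and 6.79 (14.3-fold). The reporter-low arrays were the higher ones throughout, with gaps far wider than the spread within a gate. Nkg7, a granule gene of cytotoxic cells, was 32.5-fold lower, Gzmb (granzyme B) 9.13-fold and Ccl5, a chemokine gene of these cells, 6.37-fold.

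Many lymphocyte transcripts were above background in reporter-high cells. The mean level of the 20 pan-leukocyte genes was 7.996 and 8.23 in reporter-low, 6.98 and 7.14 in reporter-negative and 5.40 and 5.64 in reporter-high cells, and 19 of the 20 were above background on both reporter-high arrays. So were 19 of 25 T cell genes and 12 of 20 cytotoxic and natural killer genes, of which 6 were above it on neither array. Leukocyte and endocrine genes thus differed between the gates in the same direction, and the part of one in the values of the other was not tested. Without low replicate 2 the called pan-leukocyte genes numbered 11 and the called T cell genes 10. Of 24 myeloid genes 5 were lower and 0 higher (20.8% called, against 4.91% of all genes), led by Fcer1g and Tyrobp, adaptors shared by natural killer and myeloid cells (-3.74 ± 0.25 and -3.77 ± 0.27). The other 3, Itgax, C1qa and Fcgr3, lost their calls without low replicate 2 (limma adjusted p from 0.0562 to 0.2), and C1qa and Fcgr3 also without low replicate 1, high replicate 2 or either negative array (0.0665 to 0.147). Some genes of other lists are also active in leukocytes and were lower: Cd44, an adhesion gene (8.74 and 8.06 against 5.98 and 6.19), Id2, a dominant-negative helix-loop-helix factor (8.91 and 8.85 against 5.23 and 4.55), and Vim, the vimentin gene (9.17 and 9.99 against 4.96 and 6.42). The share of leukocytes in these 3 values was not tested. None of the 12 mast cell, 14 B and plasma cell or 8 MHC class II genes was called by limma, and 0, 3 and 1 had an unadjusted p under 0.05. Lists of these sizes would hold few or no calls at the 4.91% of all genes.

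The genes higher in reporter-high cells were fewer and changed less. Cybrd1, a duodenal iron reductase, had the largest increase: it read 6.56 and 4.78 in reporter-low and 9.21 and 8.82 in reporter-high cells (3.34 ± 0.53; limma adjusted p = 0.018). Its call was lost without either reporter-high or either negative array (limma adjusted p from 0.0516 to 0.0581). Atoh1 followed, 8.50-fold higher (3.09 ± 0.34; limma adjusted p = 0.00512), then Acnat1, an acyl transferase gene (5.52 and 5.40 against 7.96 and 8.82; 2.93 ± 0.35). Mymx, known from muscle cell fusion, read 4.59 and 4.48 against 6.95 and 6.96 (2.42 ± 0.17; limma adjusted p = 0.001). Mlph, a linker of vesicles to myosin, was 4.68-fold higher. Tanc2 (2.42 ± 0.32), a scaffold protein gene, Lrrc26 (2.22 ± 0.35), an auxiliary subunit of the channel made by Kcnma1, and Naaladl2, with no reporter-low array above background and at least 3.46-fold higher, were also among the 10 largest increases. The call of Tanc2 was lost without low replicate 2 (limma adjusted p = 0.0615), that of Lrrc26 without low replicate 1, high replicate 2 or either negative array (0.0504 to 0.0582), and that of Naaladl2 without low replicate 1 or 2 (0.0840 and 0.0828).

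Transcription factors of secretory fate and maturation were the list with the largest share of higher genes. That share counts Atoh1 and Sox9, which were chosen to mark this comparison, so its rank is not a separate test. Of 18 measured members 6 were higher in reporter-high cells and 0 lower (33.3%, against 1.01% of all genes; median difference 0.41). Beside Atoh1 and Sox9 these were Bhlha15, which builds the secretory apparatus of granule-rich cells (7.47 and 7.95 against 9.43 and 9.81; 3.77-fold), Creb3l4, a membrane-bound factor of the endoplasmic reticulum (5.29 and 5.01 against 6.94 and 7.75; 4.59-fold), Foxa3 (2.21-fold) and Klf4 (2.18-fold), both known in goblet cells. Spdef, which acts in goblet and Paneth maturation, read 7.08 and 7.76 against 9.34 and 8.06 without a call (1.28 ± 0.43; limma adjusted p = 0.156; 0.0453 without high replicate 2). Xbp1 and Gfi1 were not called (0.07 ± 0.27 and -0.31 ± 0.20). The calls of Atoh1 and Bhlha15 held without any single array. Without low replicate 1 the called members numbered 3 and without low replicate 2 they numbered 2: Sox9, Foxa3 and Klf4 lost their calls without either (limma adjusted p from 0.0534 to 0.209) and Creb3l4 without low replicate 2 (0.0634). Foxa3 and Klf4 also lost them without either negative array (0.0602 and 0.0919), and Klf4 without high replicate 1 (0.0687).

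**Figure D3:**
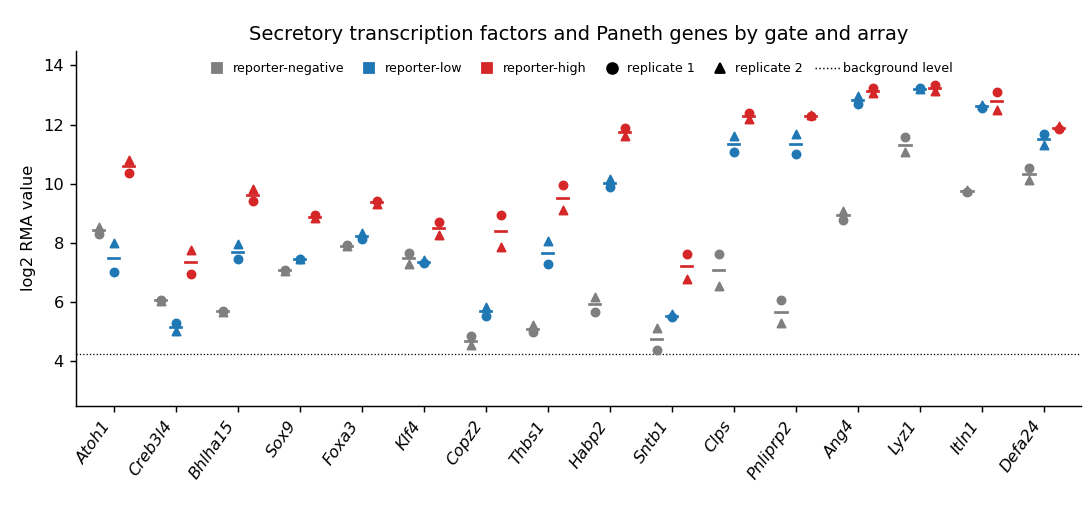
Log2 RMA values of 6 secretory transcription factor genes (Atoh1 to Klf4) and 10 Paneth genes (Copz2 to Defa24) on each array, drawn as for the hormone genes. The reporter-high arrays lie above the reporter-low arrays for the transcription factors and for Copz2 to Sntb1, while Ang4, Lyz1 and Itln1 are about as bright in both reporter-positive gates.

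Paneth cell products did not differ by a call, in a list that would hold few or none at the 4.91% of all genes. None of the 11 measured antimicrobial and granule product genes was called, although all 11 differences were above 0, as were 12301 of all 19938 genes (0.01 to 1.28, median 0.60 against 0.13 over all genes; limma called 0, and 2 had an unadjusted p under 0.05; 1 was called without either reporter-high array). Lyz1, the lysozyme gene, read 13.22 and 13.21 in reporter-low and 13.33 and 13.13 in reporter-high cells (0.01 ± 0.22; 95% interval -0.52 to 0.54). Ang4 (angiogenin 4), Itln1 (intelectin 1) and Mmp7, the protease that activates defensins, differed by 0.32 ± 0.21, 0.18 ± 0.23 and 0.85 ± 0.26. Of 15 other measured genes of Paneth cells 4 were higher and 0 lower (26.7%, against 1.01% of all genes higher; median difference 0.97). The difference between the Paneth lists was not tested. They were Copz2, a subunit of the COPI vesicle coat (6.56-fold; 5.53 and 5.83 against 8.93 and 7.86), Thbs1, the thrombospondin gene (3.62-fold), Habp2, a serine protease (3.31-fold), and Sntb1, a syntrophin (3.17-fold). Without low replicate 1 none of the 4 was called and without low replicate 2 only Copz2 (limma adjusted p of the lost calls from 0.054 to 0.199). Thbs1 and Sntb1 also lost theirs without high replicate 1 or either negative array (0.0637 to 0.0922). Nupr1, a stress response gene, read 9.81 and 10.43 against 11.85 and 11.84 and was not called (1.73 ± 0.44; limma adjusted p = 0.0805), though it was called when the low and high arrays were fitted alone (0.0405). The lipase genes Clps and Pnliprp2 differed by 0.95 ± 0.38 and 0.97 ± 0.33, with limma adjusted p of 0.201 and 0.155.

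Among 27 crypt base columnar stem cell markers 3 were higher and 0 lower in reporter-high cells (11.1%, against 1.01% of all genes higher; median difference 0.27). Lgr5, a receptor for R-spondin and a marker of cycling stem cells, read 6.06 and 6.04 in reporter-low and 7.47 and 8.03 in reporter-high cells (1.70 ± 0.25; limma adjusted p = 0.0134). Nkd1, a Wnt feedback inhibitor, and Slc12a2, a chloride cotransporter, were 2.04-fold and 2.26-fold higher. Olfm4, another marker of these cells, was not called (0.24 ± 0.34). Of 31 Wnt genes 3 were called (9.68%, against 4.91% of all genes). Lgr4, also an R-spondin receptor (7.01 and 7.04 against 8.63 and 8.68; 1.63 ± 0.17), and Tcf7l2, a transcription factor of the pathway (1.36 ± 0.22), were higher and Cd44 was lower. Without low replicate 1 or 2 the calls of Lgr5, Nkd1, Slc12a2 and Tcf7l2 were lost (limma adjusted p from 0.0797 to 0.2), while that of Lgr4 held without any single array. Nkd1, Slc12a2 and Tcf7l2 also lost their calls without either negative array (0.0649 to 0.1), Nkd1 without high replicate 2 (0.0572) and Slc12a2 without high replicate 1 (0.0531).

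In the Notch pathway, 1 of 26 genes was higher and 3 were lower (15.4% called, against 4.91% of all genes). Hes1, the target gene that opposes Atoh1, read 5.97 and 6.04 in reporter-low and 7.53 and 7.71 in reporter-high cells (1.61 ± 0.26; limma adjusted p = 0.0208). Atoh1 and Hes1 were thus both higher in the reporter-high gate. Dtx3, Dtx1 (Deltex genes) and Maml2, a co-activator, were lower (-1.501, -1.15 and -1.49), and Dll1, a ligand of secretory progenitors, was not called (0.49 ± 0.20; limma adjusted p = 0.21). These calls were fragile: without low replicate 1 all 4 were lost, with array weights too, and Hes1 was also lost without low replicate 2 or high replicate 2 (limma adjusted p from 0.0701 to 0.117). Without either negative array the 3 lower genes lost their calls (0.0654 to 0.111).

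Of 32 enterocyte genes 3 were lower and 0 higher (9.38%, against 3.89% of all genes lower), and 6 differences were above 0 (median -0.34, and 0.03 without low replicate 1). The lower ones were Slc6a19, an amino acid transporter (9.85-fold; -3.30 ± 0.50), Slc15a1, a peptide transporter (-1.88 ± 0.28), and Dpp4, a brush border peptidase (-1.53 ± 0.18). The first 2 lost their calls without low replicate 1 (limma adjusted p = 0.0883 and 0.0536) and Dpp4 without low replicate 2 (0.0507). The called shares of goblet and tuft genes, 5.56% and 4.17%, were near the 4.91% of all genes. Of 18 goblet genes only Ern2, a stress sensor of mucus cells, was higher (2.04 ± 0.33; limma adjusted p = 0.117 and 0.0591 without low replicate 1 or 2, and 0.058 without either negative array), and Muc2, the main mucin gene, was not called (0.74 ± 0.26; limma adjusted p = 0.171). Of 24 tuft genes only Plcg2 was lower (-1.28 ± 0.20; limma adjusted p = 0.103 without low replicate 2 and 0.0544 without either negative array), and Dclk1, a tuft marker, was not called (-0.22 ± 0.32). Of 39 mitotic genes Cdk1 alone was called, higher by 1.04 ± 0.21 (lost without any single array but high replicate 1; limma adjusted p from 0.0883 to 0.202), although all 39 differences were above 0 (median 0.45, against 0.13 over all genes). Of 35 replication genes Cdc6 alone was called (1.25 ± 0.25; lost without any single array but low replicate 2, limma adjusted p from 0.0637 to 0.161), and Mki67 was not (0.65 ± 0.25; limma adjusted p = 0.195). The called shares of the mitotic and replication lists, 2.6% and 2.9%, were below the 4.91% of all genes called and above the 1.01% called higher. In the secretory pathway, Edem1 of 32 unfolded protein response genes and Ssr3 of 41 translocon, coat and glycosylation genes were higher (1.297 ± 0.27 and 1.10 ± 0.19). Their called shares, 3.1% and 2.4%, lay between the same 2 values. Edem1 lost its call without any single array (limma adjusted p from 0.0538 to 0.203) and Ssr3 without any but high replicate 1 (0.0592 to 0.138), while quantile normalization called 4 and 5 members of these lists. Bmp7, a BMP ligand gene, was higher (1.78 ± 0.23; limma adjusted p = 0.00935), and lost its call without low replicate 1 (0.0688).

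**Figure D4:**
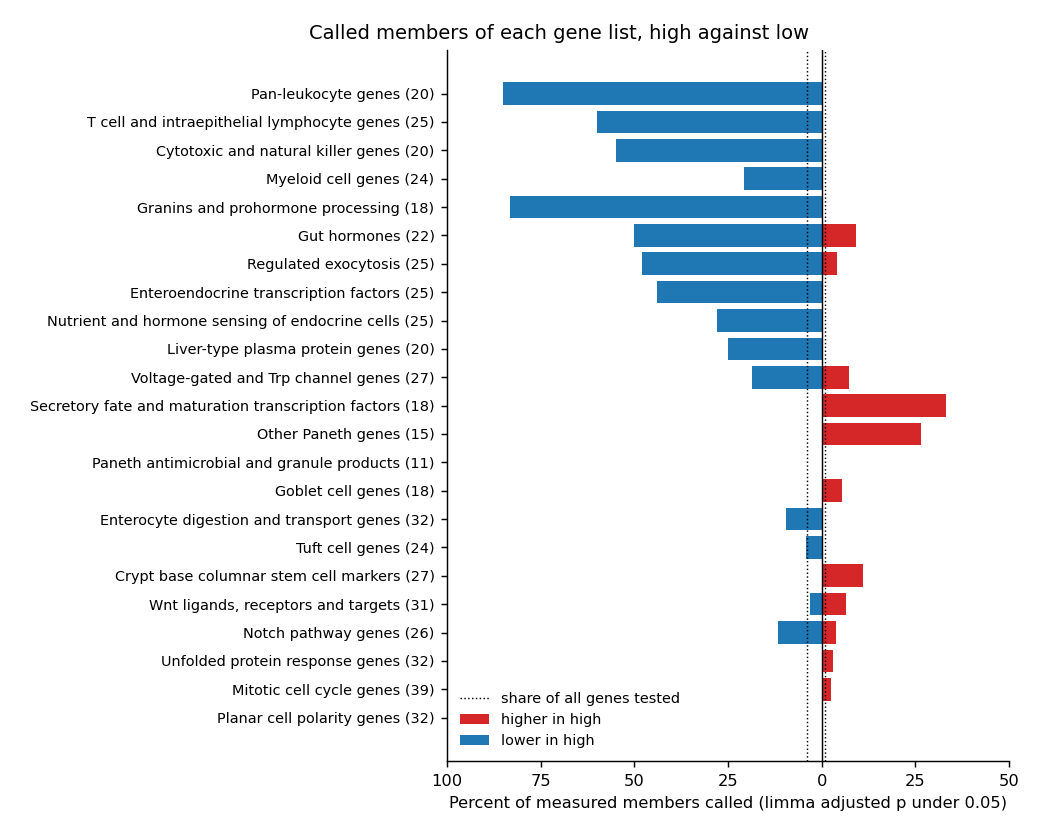
Share of the measured members of 23 gene lists that were called higher (red, to the right) or lower (blue, to the left) in reporter-high cells, with the number measured in parentheses; dotted lines mark the shares over all genes, 1.01% higher and 3.89% lower. Leukocyte and endocrine lists reach furthest to the left, and the secretory transcription factors and other Paneth genes furthest to the right.

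The reporter-negative gate took different positions for most called endocrine and most called lymphocyte genes. All 15 called genes of granins and prohormone processing and all 11 called endocrine transcription factors had a negative gate mean below both reporter-positive gates, so that the reporter-low gate stood alone at the top. The negative gate mean also lay below both for 11 of 13 called hormone genes, 10 of 13 exocytosis genes and 6 of 7 sensing genes. Of these 11 hormone genes, Nucb2 was highest in the reporter-high gate and the others in the reporter-low gate. For the other called genes of these lists, Tac1, Ppy, Cadps, Slc18a2 and Glp1r among them, the negative gate lay between. All 17 called pan-leukocyte genes, 14 of 15 T cell genes and 11 of 11 cytotoxic genes had a negative gate mean between the others, so that the reporter-high gate was the lowest of the 3. Over all called genes the negative gate lay below both others for 224 of 776 lower genes and 73 of 202 higher genes, between them for 491 and 107, and above both for 61 and 22. Among the 6 called secretory transcription factors it lay below both for 3 and between them for 3. Atoh1 read 8.31 and 8.54 in the negative gate, above both reporter-low arrays. These positions share the arrays of the comparison and were not tested.

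**Figure D5:**
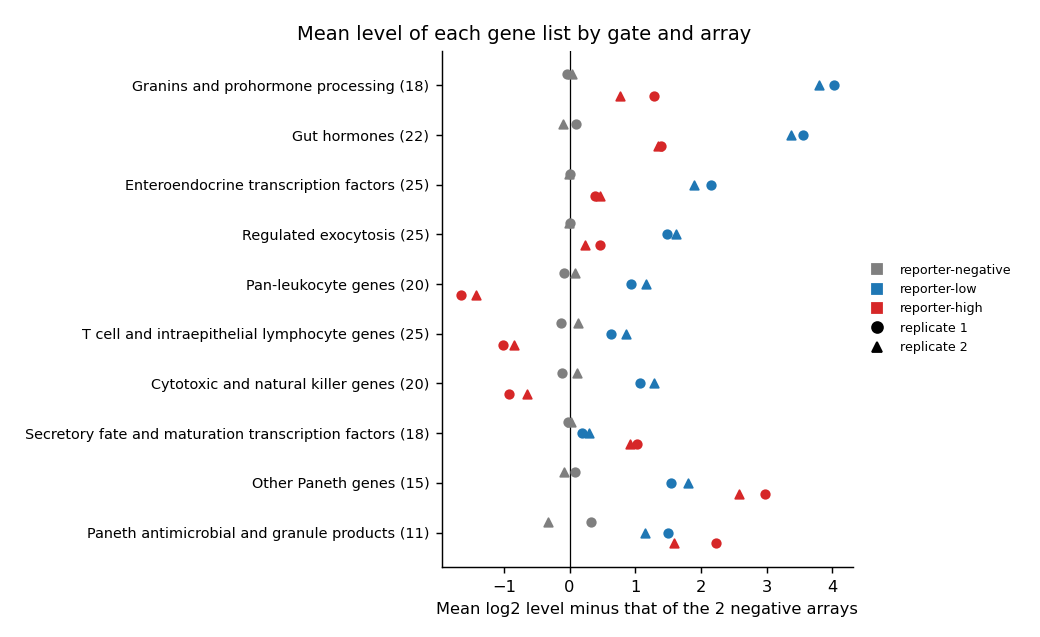
Mean log2 level of the members of 10 gene lists on each array, less the mean of the 2 reporter-negative arrays; circles and triangles are replicates 1 and 2, and the number of measured members is in parentheses. The reporter-low arrays are highest for the endocrine lists, the reporter-high arrays are lowest for the 3 leukocyte lists and highest for the secretory transcription factors and both Paneth lists.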

How the data were processed

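Small intestinal crypt cells were sorted into 3 gates by reporter brightness, and RNA of each gate was measured on 2 Affymetrix arrays. Per the labels' protocols, RNA was purified on columns, treated with DNase, and amplified and biotin-labelled with NuGEN kits. The authors' deposited log2 values come, per the submitters' processing notes, from RMA in Affymetrix Expression Console 1.3.0.187. Options of RMA are not stated in these notes. Signal rather than read depth limits an array, and 2 arrays a gate limit the precision.

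Of 35556 probe sets, 21789 had 1 gene symbol, 1621 several and 12146 none; those with 1 symbol were kept, 21698 were named through gene identifiers (GRCm38.p6 table, names only), and each gene took the probe set with the highest mean over the 6 arrays, which left 19938 genes. limma 3.58.1 (R 4.3.3) fitted 3 gate means with 3 residual degrees of freedom. Errors are its standard errors. Nothing says that arrays beyond the pooled animals are independent, so p-values measure the spread between these arrays. The background level of 4.23 is the 95th percentile of the mean over 1203 receptor genes of olfaction and related senses. Where neither array of the dimmer gate exceeded this level, the fold is written as at least the brighter mean over the level, and where 1 of the 2 exceeded it, the measured fold is given.

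Named genes were the reporter gene, the 4 markers, the 10 largest increases and decreases, up to 6 called members of each list by p, and defining members that were not called. Unc13a, Kcnn4, Slc18a1, Slc18a2, Eif2s3y, Krt18, Vil1, Epcam and the genes of the closing observations were chosen after their values were seen. The members and gene lists were chosen with earlier results of these data known. Gates were taken from sample titles. Alternatives covered the arrays fitted, limma's prior, probe set rules, scaling, array weights, a replicate block, thresholds and leaving out each array. The scripts were tested on simulated data. The 12 lineage-tracing samples are not analysed here.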

Additional observations from a re-analysis of the deposited data

How the results depend on the processing

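Of 148 named genes that were called, 85 were called in all 16 alternative fits, and no called result changed direction. The total of 978 called genes became 499 with the low and high arrays alone, 607 with array weights, 319 at an adjusted p under 0.01 and 1771 at an adjusted p under 0.1; it ranged from 381 to 1739 when each array was left out in turn. Leaving out an array also moved the called secretory transcription factors (2 to 7, from 6), regulated exocytosis genes (7 to 15, from 13) and pan-leukocyte genes (11 to 16, from 17). At an adjusted p under 0.01, 7 exocytosis and 7 cytotoxic genes were called. Arrays left out reduce the residual degrees of freedom, and leaving out 1 negative array gives the same fit as leaving out both; a lone array of a gate is assumed to vary like the others. Whether equal replicate numbers mark shared animals is not known, and they were not used as pairs. The sex-linked genes Eif2s3y and Xist followed the replicate number in all 3 gates. Over 12880 genes, replicate deviations correlated at 0.111 (negative and low), 0.114 (negative and high) and 0.086 (low and high). A replicate block gave 965 calls, 823 of them shared with the 978, and 10 of the 148 named genes lost their call. Higher genes made up 20.7% of calls, and 34.6% after quantile normalization. Levels near background limit what can be said of dim genes.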

Other observations

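Genes outside the lists described above, chosen after their values were seen, also differed between the gates. Rnase1, a secreted ribonuclease gene, read 9.72 and 9.81 in reporter-low and 11.94 and 11.95 in reporter-high cells (2.18 ± 0.17; limma adjusted p = 0.00144). Samd5 was higher by 2.15 ± 0.18 (limma adjusted p = 0.00179). Slc43a1, an amino acid transporter gene, was higher by 1.89 (limma adjusted p = 0.0113), and Aldh1l2, a mitochondrial folate enzyme gene, at least 3.21-fold (limma adjusted p = 0.00324). Bambi, a decoy receptor of the TGF-beta family, and Acvr1c, a receptor of the same family, were higher by 1.72 and 1.77. The call of Acvr1c was lost without low replicate 1 or 2 (limma adjusted p = 0.0521 and 0.0547) and that of Slc43a1 without low replicate 2 (0.0744).

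In the opposite direction, Ddc, the enzyme that completes serotonin synthesis, read 9.34 and 9.61 in reporter-low and 5.37 and 5.91 in reporter-high cells (-3.84; limma adjusted p = 0.000711). Gch1, which makes the cofactor of Tph1, was at least 13.0-fold lower. The reporter-negative mean lay between the other gates for Ddc (7.22) and Gch1 (5.07), and below both for Tph1 (3.88). Trgv1, a gamma chain segment of the T cell receptor, read 9.25 and 9.25 against 4.77 and 5.31 (-4.21). Of 300 measured microRNA genes, 5 were higher and 1 lower (2.00%, against 4.91% of all genes); arrays of this kind read precursors and overlapping transcripts as well as mature microRNAs.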
